A study of Mus musculus with 419 samples.

Results

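This report describes 49 cell cycle and replication genes across 19 tissues of female and male CBA/CaJ mice, an inbred strain, from a study of relative energy deficiency in sport. The members were taken by gene symbol from a list, and all 49 were found among the 55487 genes of the count table. Of these, 32 act in mitosis, and the other 17 act in DNA replication and the step from G1 into S phase. RNA from bulk tissue was sequenced in 419 libraries of polyadenylated RNA. Control mice were energy-sufficient and Deficient mice energy-deficient; the labels name no altered allele, and how the deficit was imposed and the ages of the mice are not given in the sources used here. Tissues were collected at zeitgeber time (hours after lights on) 5, written ZT05, and 17, written ZT17. A group is 1 tissue, sex, treatment and time. Of 140 groups, 139 held 3 libraries and 1 held 2 (tibialis anterior tendon, male Control ZT05). The 12 females gave every female tissue, so tissues of 1 sex share animals. By the animal numbers in the library names, there were 12 males numbered up to 62, in the same range as the females, and 12 numbered 73 to 94. The lower-numbered males alone gave male pituitary, heart, lung, liver and testis, and the higher-numbered alone gave adrenal gland, kidney, extensor digitorum longus (EDL) with its tendon, tibialis anterior with its tendon, and soleus. Both sets gave male spleen, brown adipose tissue, quadriceps, gastrocnemius and gastrocnemius tendon. For spleen and gastrocnemius tendon the higher-numbered animals were in Control alone, and for brown adipose tissue in Deficient alone. There the set of animals is not fully separate from treatment.

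Cells commit to division when E2F transcription factors, freed from the retinoblastoma protein, switch on genes for origin licensing, nucleotide synthesis and cyclin E. Later in the cycle B-MYB and FOXM1, bound at promoters through the MuvB core of the DREAM complex, switch on genes for the mitotic kinases, kinetochore and spindle, and in resting cells DREAM keeps them off. In adult mice RNA of these genes is abundant where cells keep dividing, as in spermatogenesis, splenic erythropoiesis, ovarian follicles and the cycling uterus, and is scarce in muscle.

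The promoters of 4 members are shown because the mitotic and the replication genes have different control elements there. They belong to the mitosis members Mki67 and Top2a, called lower in the most sets of tissue and sex, and to the replication members Rrm2 and Tyms. E2f1, Ccne2 and Cdc6 ranked above Tyms but are not printed: the RefSeq start of E2f1 and of Cdc6 lies 466 and 350 bases inside the annotated gene, and Ccne2 has no entry in the promoter table. Mcm5 had as many calls as Tyms with a smaller median fold change, and is not printed; its promoter held 2 of the E2F words searched and 3 CCAAT words. Each run is RefSeq sequence of build GRCm38.p6, 5′ to 3′ on the strand of the gene, and ends at or before the base next to the start. Capitals mark the cell cycle homology region words TTTGAA and TTCGAA and the CCAAT word, on either strand (TTCAAA, and ATTGG, when read on the opposite strand). Mki67 lies at chr7:135716380-135716629 (minus strand), Top2a at chr11:99024190-99024439 (minus), Rrm2 at chr12:24708004-24708240 (plus) and Tyms at chr5:30073626-30073875 (minus).
Mki67: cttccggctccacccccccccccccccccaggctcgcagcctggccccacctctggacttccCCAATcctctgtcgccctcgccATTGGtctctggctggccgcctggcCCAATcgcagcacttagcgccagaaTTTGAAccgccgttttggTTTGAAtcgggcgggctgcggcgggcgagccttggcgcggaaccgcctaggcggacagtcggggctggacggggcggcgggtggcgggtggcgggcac
Top2a: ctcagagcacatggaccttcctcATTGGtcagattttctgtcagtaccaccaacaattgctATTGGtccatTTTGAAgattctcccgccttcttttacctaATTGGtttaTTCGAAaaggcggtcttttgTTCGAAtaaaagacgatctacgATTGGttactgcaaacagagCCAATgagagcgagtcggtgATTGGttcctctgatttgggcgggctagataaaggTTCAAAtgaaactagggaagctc
Rrm2: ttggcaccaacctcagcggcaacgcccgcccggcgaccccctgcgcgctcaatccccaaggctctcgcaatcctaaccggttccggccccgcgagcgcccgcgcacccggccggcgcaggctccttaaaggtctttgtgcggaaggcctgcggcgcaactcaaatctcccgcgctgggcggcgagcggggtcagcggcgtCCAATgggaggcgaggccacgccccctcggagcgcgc
Tyms: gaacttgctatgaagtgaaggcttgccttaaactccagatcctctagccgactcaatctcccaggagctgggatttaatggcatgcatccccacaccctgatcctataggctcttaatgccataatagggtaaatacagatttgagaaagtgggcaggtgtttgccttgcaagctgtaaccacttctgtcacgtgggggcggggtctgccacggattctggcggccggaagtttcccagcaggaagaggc

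Counted back from the RefSeq start, TTTGAA stood at -116 and -98 in the Mki67 promoter, with CCAAT words at -188, -166 and -141. Top2a held 4 such homology region words and 6 CCAAT words. Rrm2 held a single CCAAT, at -50, and the Tyms run had none of these letters. By symbol, 42 of the members matched a RefSeq promoter of 250 bases before to 50 after the start. Either homology region word was found in 21 of 27 mitosis promoters (77.8%), in 4 of 15 replication promoters (26.7%) and in 19.5% of all 27025 promoters. Both this word and CCAAT were found in 66.7% of mitosis and 26.7% of replication promoters, against 7.73% of all. CCAAT, with or without this word, was in 74.1% of mitosis and 66.7% of replication promoters, beside 38.0% of all. The E2F words searched, TTTCCCGC, TTTCGCGC, TTTGCCGC and TTTGGCGC on both strands, went the other way: they were found in 5 of 15 replication promoters (33.3%), in 1 of 27 mitosis promoters (3.7%) and in 2.33% of all. Promoters whose RefSeq start lay inside the annotated gene were kept in all these shares. Among the 5 were Mcm7 and Cdc6, with starts 539 and 350 bases inside. The Rrm2 and Tyms promoters held none of these E2F words. A match describes letters and is not a shown binding site.

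Library totals ranged from 5777450 to 53598697 counts, of which the 49 members together took 37 to 85712. In 58 libraries over 50% of the counts were of mitochondrial genes or genes counted here as ribosomal RNA-like, Lars2 among them. The fewest counts to other genes in a library were 324026. The library with 37 member counts was of male liver, where 4 of 49 members passed the filter on low counts. The tissues' defining markers were present in both arms in the sets described below, for example Cyp11a1, Cyp11b1 and Star summed to 17080 to 22610 CPM (counts scaled to library size) in female Control adrenal glands and 15540 to 24080 in Deficient ones. Bulk RNA does not tell fewer dividing cells apart from less of these RNAs in each cell, and this holds for every result below.

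In Control mice the module level, the mean over the 49 members of log2(CPM + 0.5), was highest in testis at 4.78 (range 4.66 to 4.85 over 6 libraries). Female spleen followed at 4.13 (3.29 to 4.83), then uterus at 3.25 (1.76 to 4.68), male spleen at 3.14 (2.46 to 3.97) and ovary at 2.48 (1.15 to 3.98). The ranges of these last 4 overlapped, and those of female spleen and uterus reached into the range of testis. Female adrenal gland stood at 1.96 and male at 1.38, lung at 1.81 in females and 1.63 in males, heart at 1.44 and 1.35, and kidney at 1.24 and 1.05. Limb muscles and tendons, pituitary, brown adipose tissue and liver were lower, down to 0.44 in male tibialis anterior, 0.34 in male brown adipose tissue and 0.11 in male liver. Testis differed in kind as well: it was the 1 of 35 tissue and sex sets in which the mitosis members had a higher Control level than the replication members.

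Levels of different genes were compared per kilobase of exon. Pcna, the sliding clamp of the replication fork, led the panel of 10 genes: in Control mice it stood at 46.4 CPM per kilobase in female spleen, 40.4 in testis and 13.5 in female heart. Ccnb1, the cyclin B that drives entry into mitosis, stood at 12.5 in testis, 4.30 in female spleen and 0.163 in female heart on the same scale. Mki67, which coats mitotic chromosomes and marks cycling cells, was the other way round, at 21.4 in female spleen and 4.88 in testis. Over the 35 sets Pcna ranged from 1.54 (male liver) to 46.4, Ccnb1 from 0 (male brown adipose tissue) to 12.5 and Mki67 from 0.0301 (male tibialis anterior) to 21.4 CPM per kilobase.

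**Figure D1:**
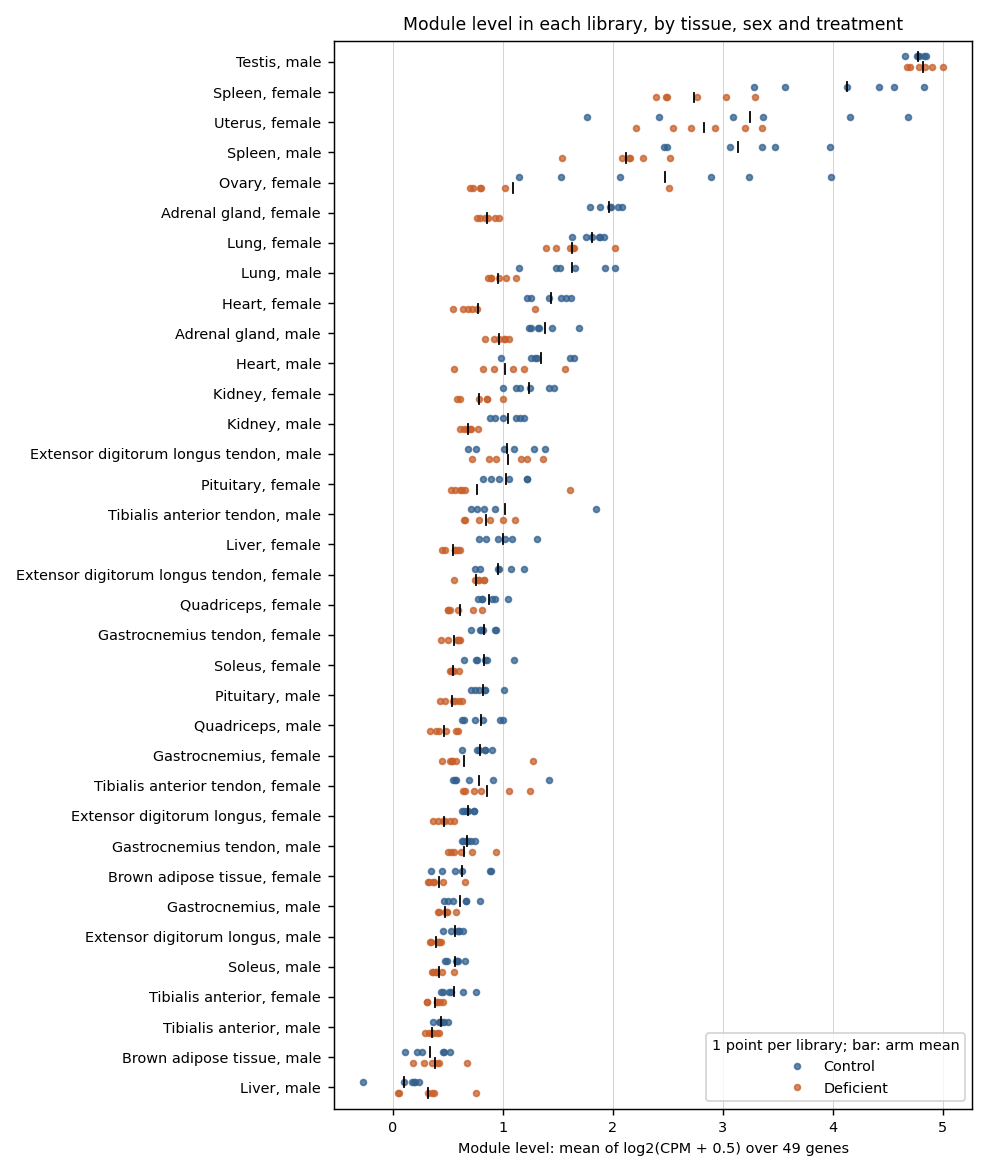
Module level, the mean of log2(CPM + 0.5) over 49 genes, on the x axis for each library (1 point), by tissue and sex on the y axis, with Control in blue, Deficient in orange and a bar at each arm's mean. Testis, spleen, uterus and ovary lead, and the orange points lie mostly to the left of the blue ones, with male liver, male brown adipose tissue, testis, male EDL tendon and female tibialis anterior tendon the exceptions in the mean.

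Energy deficit went with lower levels of these genes in most female tissues. The module mean was lower in Deficient mice in 17 of 18 female and 13 of 17 male sets, and in 12 sets the arms did not overlap; the sign changed with the scaling in male gastrocnemius, with the pseudocount or scaling in male gastrocnemius tendon, and with summed in place of mean levels in both of these, male EDL tendon and female tibialis anterior tendon. Summed over members, female spleen went from 1375 CPM in Control to 540.7 in Deficient mice, a ratio of 0.393. The ratio was 0.448 in ovary, 0.536 in male spleen, 0.573 in female adrenal gland, 0.677 in male lung, 0.679 in uterus and 0.756 in female heart. It was above 1 in 6 male sets, at 1.48 in liver, 1.31 in gastrocnemius tendon, 1.15 in brown adipose tissue, 1.06 in gastrocnemius, 1.02 in testis and 1.01 in quadriceps, and in no female set.

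Each gene was then tested with edgeR's quasi-likelihood test, Deficient against Control averaged over both times, within 1 tissue and 1 sex, with Benjamini-Hochberg adjustment over all genes tested there and a threshold of 0.05. In females 710 of 882 member and tissue pairs passed the filter on low counts, 200 of them were called lower (28.2%, beside 7.42% of all gene and tissue pairs) and 11 higher (1.55%, beside 6.79%). In males 519 of 833 pairs passed, 38 were lower (7.32%, beside 2.45% of all) and 3 higher (0.578%, beside 2.3%). Several male sets were shallower. Outside mitochondrial and ribosomal RNA-like genes, male hearts held 2068054 to 4229028 counts per library and female hearts 10847576 to 20160938. Male lungs held 3580179 to 9771724 and female lungs 18244750 to 26927716. The part of depth in the lower male shares was not tested. Some members passed the filter only through the higher Control arm, 15 of 48 in female heart for instance, and had to differ to be tested. All 49 were tested in 8 sets, and counts of tested members are given as description. No member was called lower in female pituitary, EDL tendon or tibialis anterior tendon.

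**Figure D2:**
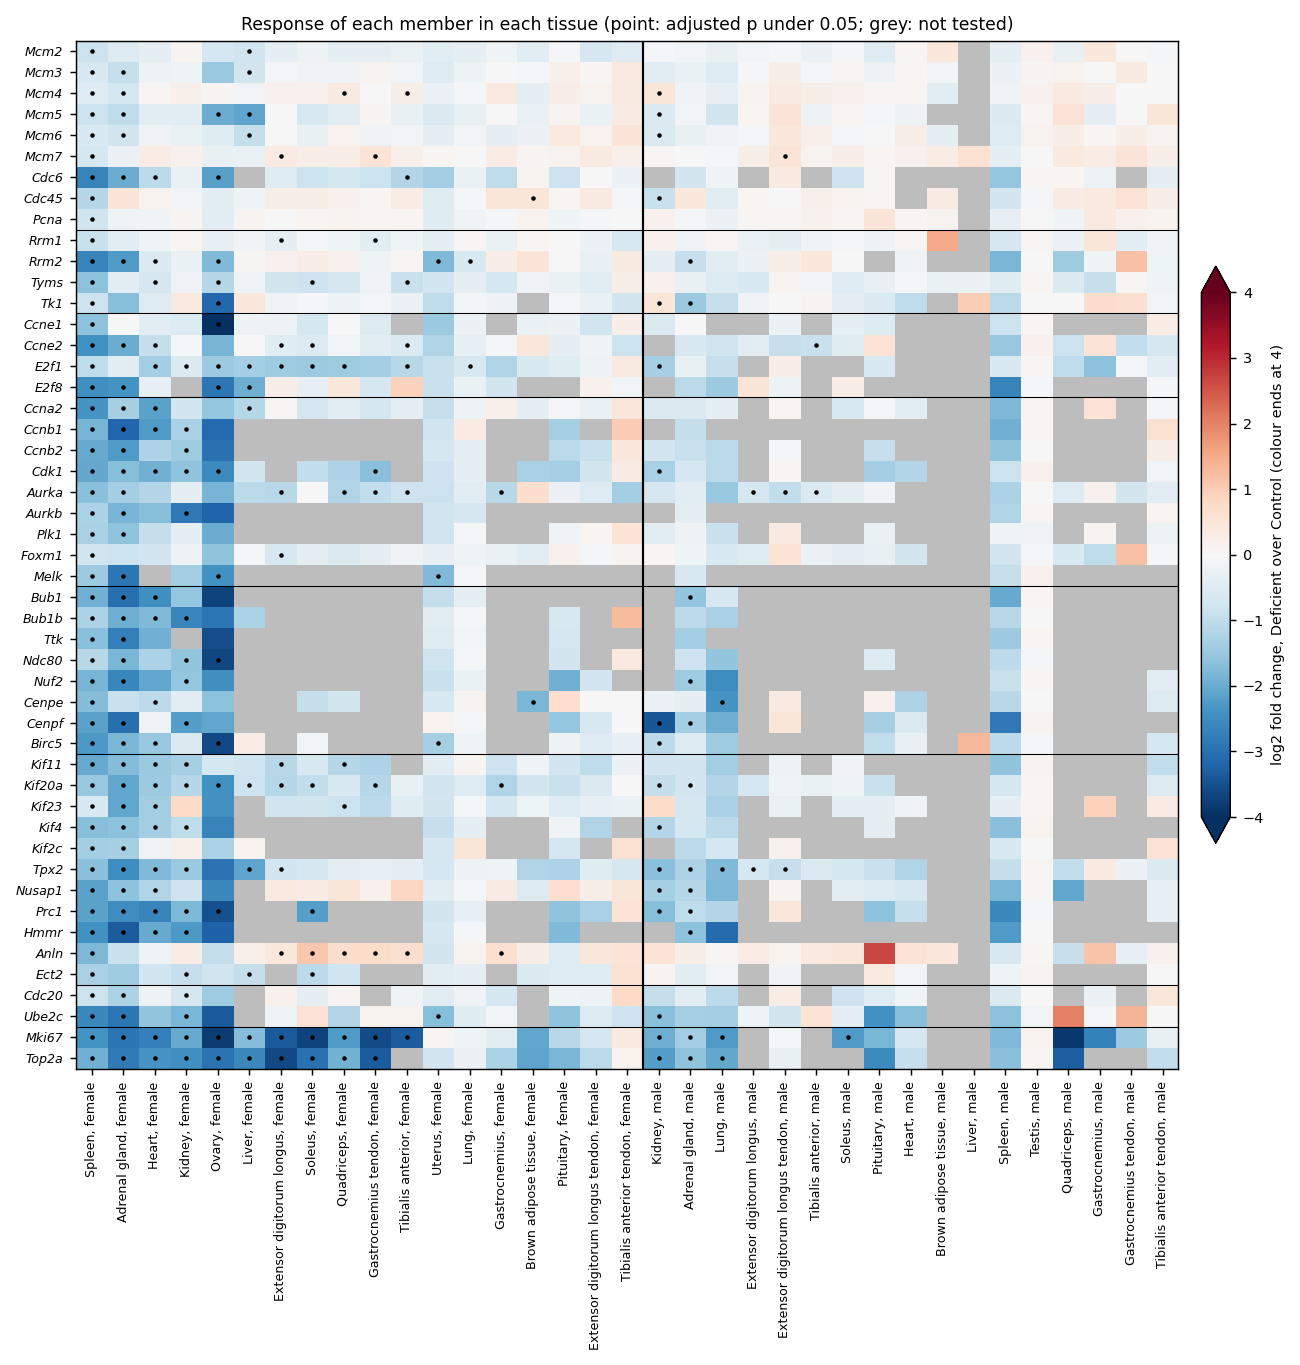
Log2 fold change of Deficient over Control (colour, blue lower and red higher) for each of 49 members (y axis, ordered by role, lines between roles) in each tissue and sex (x axis, females left), with a point where the adjusted p is under 0.05 and grey where the gene was not tested. The column of points is complete in female spleen, the Mki67 and Top2a lines carry most points, and the red points fall mostly on Anln, Mcm4 and Mcm7.

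Among the replication members, the licensing and fork genes changed least. Of their 161 female pairs 22 were lower (13.7%) and 5 higher. The MCM2-7 helicase genes were called lower in 1 to 5 sets each, and Pcna in female spleen alone, where Control libraries held 128 to 269 CPM (median 199) and Deficient ones 105 to 127 (median 118). The arms did not touch, and the log2 fold change was -0.78 ± 0.16 (SE, adjusted p = 0.0129, edgeR). Mcm5 fell further in female liver, from 1.87 to 6.28 CPM in Control to 0.5 to 1.10 in Deficient libraries (log2 fold change -2.12 ± 0.22, adjusted p = 5.53e-05). Cdc6, which loads the helicase onto origins, was called lower in 5 female sets, with the largest fall of all members in spleen named below.

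Nucleotide supply was lower in 16 of 71 female pairs (22.5%). Rrm2, the regulated subunit of ribonucleotide reductase, was called in 6 female tissues and in male adrenal gland, while its constitutive partner Rrm1 was called in 3. In female adrenal gland Rrm2 stood at 8.73 to 12.4 CPM in Control and 1.49 to 3.64 in Deficient libraries, with no overlap, a log2 fold change of -2.27 ± 0.19 (adjusted p = 0.000536); Rrm1 there went from a mean of 39.2 ± 2.45 to 29.5 ± 1.63 CPM (SD, n = 6 each), which missed the threshold at adjusted p = 0.0501 by edgeR. Tyms, thymidylate synthase, was called lower in 5 female sets and in no male one.

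G1/S regulators were lower in 22 of 67 female pairs (32.8%). E2f1, the activator E2F, accounted for 10 of these and was called in male kidney too. In female lung, where few members changed, E2f1 went from 14.0 to 18.2 CPM (median 15.7) in Control to 8.81 to 13 (median 9.88) in Deficient libraries, without overlap (log2 fold change -0.64 ± 0.10, adjusted p = 0.0084). In male kidney it stood at 3.13 to 5.07 CPM in Control and 1.11 to 2.07 in Deficient libraries, a log2 fold change of -1.32 ± 0.21 (adjusted p = 0.000577). Ccne2, one of the E cyclins, was lower in 6 female sets and in male tibialis anterior, and the repressor E2f8 in 4 female sets.

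In 27 of the 29 sets with at least 10 mitosis members tested, the median log2 fold change of the tested mitosis members was below that of the tested replication members. The exceptions were female lung (-0.17 against -0.24), with all 49 tested, and female tibialis anterior tendon (0.39 against 0.19). In testis, male gastrocnemius and male EDL tendon both medians were above 0, so the lower mitosis median was not a larger fall there. Members tested only through their level in 1 arm enter these medians, which are a description. Only the Deficient level let in 10 of the 42 members tested in female tibialis anterior tendon and 7 of 25 in male gastrocnemius. Mitotic cyclins, kinases and regulators were lower in 35 of 111 female pairs (31.5%). Cdk1, the kinase that cyclin B activates, was called in 6 female sets and in male kidney. In female kidney it went from 1.47 to 3.26 CPM in Control to 0.306 to 1.22 in Deficient libraries (log2 fold change -1.62 ± 0.26, adjusted p = 0.00266). Aurka, the centrosomal Aurora kinase, had another pattern of tissues: 7 female and 3 male sets, all but female spleen and adrenal gland being limb muscles and tendons.

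Kinetochore and checkpoint genes were lower in 27 of 77 female pairs (35.1%), and spindle and cytokinesis genes in 50 of 157 (31.8%). The kinesin Kif20a, needed for cytokinesis, was called in 10 female and 2 male sets, the spindle assembly factor Tpx2 in 6 and 5, and Prc1, which bundles midzone microtubules, in 6 and 2. Of the anaphase-promoting complex genes Cdc20 and Ube2c, 7 of 31 female pairs were lower (22.6%). Mki67 and Top2a, the topoisomerase that untangles sister chromatids, were lower in 21 of 35 female pairs (60%) and 7 of 23 male pairs (30.4%). Mki67 was called lower in 15 of the 31 sets that tested it and Top2a in 13 of 27.

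The members also called higher somewhere were Anln, Mcm4, Mcm7, Cdc45 and Tk1. Anln, anillin of the contractile ring, rose in 6 female sets, namely quadriceps, gastrocnemius, gastrocnemius tendon, EDL, tibialis anterior and soleus, and fell in female spleen. In female soleus it went from 1.73 to 2.7 CPM (median 2.35) in Control to 2.55 to 6.68 (median 4.94) in Deficient libraries, which overlapped, with a log2 fold change of 1.07 ± 0.18 (adjusted p = 0.00258, edgeR). Mki67 in the same muscle moved the other way, from 0.927 to 2.64 CPM down to 0.0472 to 0.247 (log2 fold change -3.70 ± 0.37, adjusted p = 0.000173). Mcm4 rose in male kidney, female quadriceps and female tibialis anterior, Mcm7 in female gastrocnemius tendon, female EDL and male EDL tendon, Cdc45 in female brown adipose tissue and Tk1, thymidine kinase, in male kidney. The rises were smaller than most falls: Mcm7 in female EDL had a log2 fold change of 0.32 ± 0.08, and Cdc45 in brown adipose tissue 0.48 ± 0.13, with Deficient libraries (6.83 to 9.28 CPM) all above Control ones (3.65 to 6.65). Apart from Anln in soleus, which was called each time, the count of rises moved by over 1.5 times without any of several libraries. It went from 2 to between 0 and 3 in female quadriceps, from 2 to between 1 and 3 in tibialis anterior, and from 2 to 1 in female EDL (9 of 12 libraries), female gastrocnemius tendon (10 of 12) and male kidney (7 of 12). It went from 1 to between 0 and 2 in male EDL tendon (11 of 12), and from 1 to 0 in female gastrocnemius (8 of 12) and brown adipose tissue (11 of 12).

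In female spleen all 49 members were tested and all 49 were lower in Deficient mice, beside 6.64% of all genes. Mki67 stood at 146 to 754 CPM (median 408) in Control and 42.0 to 125 (median 65.1) in Deficient libraries, with no overlap (log2 fold change -2.40 ± 0.37, adjusted p = 0.00524, edgeR). The Control libraries spanned a wide range, and for 17 members the arms did not overlap. Cdc6 showed the largest fall, from 7.54 to 49.0 CPM to 2.10 to 5.45 (log2 fold change -2.68 ± 0.40). Rrm2 fell by 2.67 and Ube2c, a ubiquitin-conjugating enzyme of the anaphase-promoting complex, by 2.59 on the log2 scale. The smallest fall was that of Mcm4, at -0.50 ± 0.12. The median was -1.75 for mitosis and -0.89 for replication members, beside -0.01 for all genes. Leaving out 1 library at a time left 43 to 49 calls.

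Markers of erythroid precursors moved with this result. All 7 of them were called lower, with a median log2 fold change of -7, and their summed level went from 99.3 to 1257 CPM in Control to 38.4 to 58.1 in Deficient spleens; none was at 0 throughout an arm. Granulocyte precursor genes were lower in 4 of 4 (sum 1.55 to 5.76 against 0.823 to 1.53 CPM). Of 5 B cell genes edgeR called 0: their sums were 2046 to 2752 and 2013 to 2513 CPM. The part of these cells in the fall of the cell cycle genes was not tested.

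Male spleen had the same sign in all 49 members, with a median of -1.03, yet edgeR called 0 of 49 lower, beside 0.124% of all genes. An unadjusted p under 0.05 was found for 28, beside 7.11% of all genes in either direction, and DESeq2 called 8. Of the 49, 10 were tested only because of their Control level. Mki67 stood at 18.8 to 130 CPM in Control and 8.32 to 29.4 in Deficient libraries, which overlapped (log2 fold change -1.76 ± 0.42, adjusted p = 0.182). Without Control ZT05 replicate 1 edgeR called 5, and without Control ZT05 replicate 2 it called 2. Erythroid precursor genes were lower in 4 of 7 there, summed from 73.1 to 588 CPM down to 19.8 to 53.6. The difference between the sexes in spleen was called for no member.

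**Figure D3:**
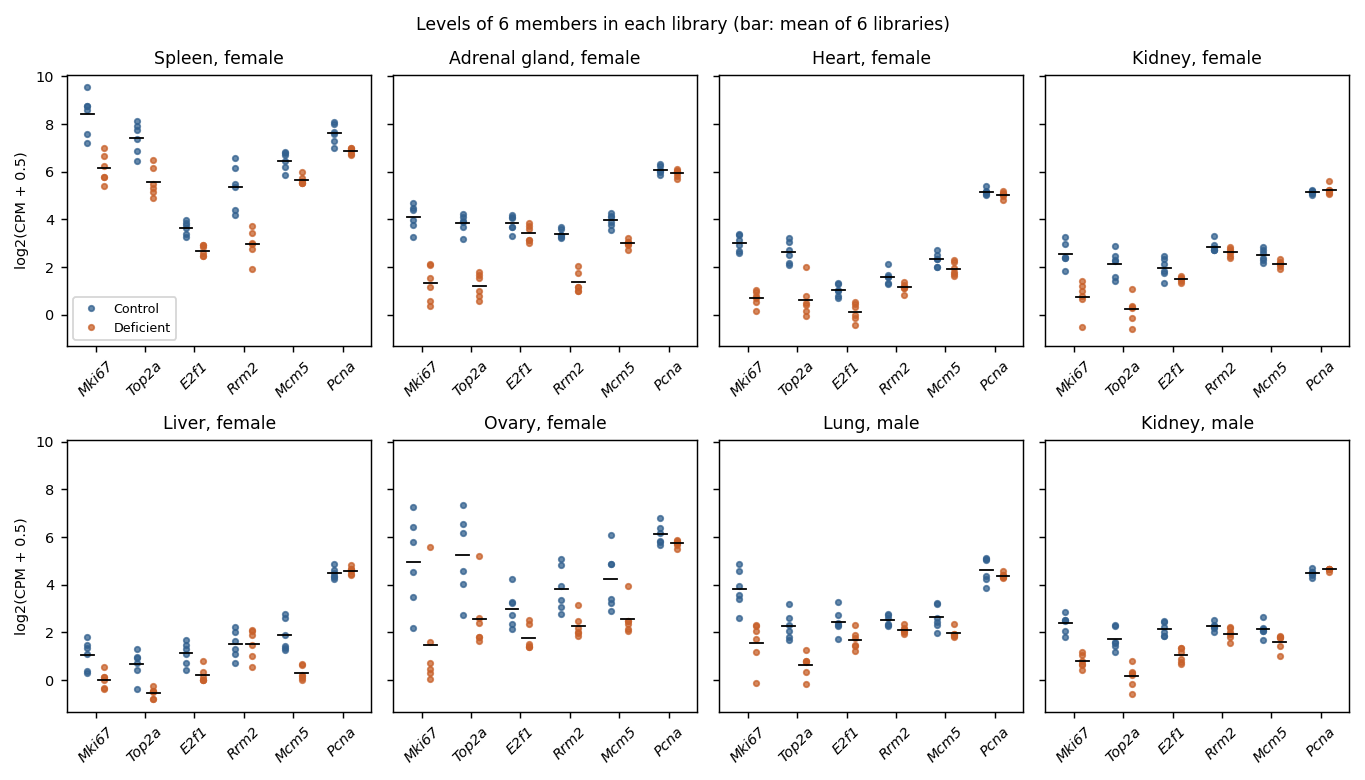
Levels as log2(CPM + 0.5) on the y axis of 6 members (x axis) in each library of 8 tissue and sex sets, Control in blue, Deficient in orange, with a bar at the mean of 6 libraries. Mki67 and Top2a are apart in female adrenal gland, heart and kidney, and Pcna is apart in female spleen; for Mki67 in ovary a single Deficient library lies among the Control ones.

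In female adrenal gland 36 of 49 members were lower, beside 1.53% of all genes. Mitosis members made up 28 of them, and their median log2 fold change was -1.90, against -0.70 for replication members. Ccnb1 stood at 3.14 to 4.72 CPM in Control and 0.208 to 0.720 in Deficient libraries (log2 fold change -3.18 ± 0.29, adjusted p = 0.000618). Hmmr, a spindle protein, fell by 3.34 and Cenpf, a kinetochore protein, by 3.03 on the log2 scale. For 36 members the arms did not overlap. The module level ranged from 1.80 to 2.08 there and from 0.766 to 0.964 in Deficient glands. Of the 49, 7 were tested only because of their Control level. Cdc45 and Ccne1 did not go along, with log2 fold changes of 0.50 (adjusted p = 0.126) and 0.02 (adjusted p = 0.973).

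Male adrenal gland gave 12 of 49 lower, beside 0.973% of all genes, and 46 of 49 members had a negative fold change. Top2a stood at 5.37 to 15.7 CPM in Control and 1.99 to 3.24 in Deficient libraries (log2 fold change -1.61 ± 0.28, adjusted p = 0.0136, edgeR). Tk1 fell by 1.47 and Mki67 by 1.39. This count was less stable than the female one: leaving out 1 library gave 5 to 11 calls, with 5 to 7 without Control ZT05 replicates 1 or 3, Control ZT17 replicate 2, Deficient ZT05 replicates 1 or 2, or Deficient ZT17 replicates 1 or 2. Fibroblast markers were lower in 2 of 5 in the female gland (187 to 560 against 126 to 288 CPM summed) and in 0 of 5 in the male gland (218 to 351 against 295 to 361 CPM). Of 5 endothelial genes edgeR called 0 in females (175 to 199 against 181 to 227 CPM). Their part in the result was not tested.

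Female heart gave 22 of 48 tested members lower, beside 8.06% of all genes. Mki67 went from 5.58 to 10.1 CPM in Control to 0.63 to 1.55 in Deficient hearts (log2 fold change -2.74 ± 0.21, adjusted p = 3.82e-05), with no overlap. Prc1 fell by 2.64 and Top2a by 2.36 on the log2 scale. Deficient ZT05 replicate 3 lay above the other Deficient hearts, with a module level of 1.29, and held the Top2a value of 3.52 CPM that came nearest to Control (3.80 to 8.83 CPM). Without this library 29 members were called. Fibroblast markers were lower in 3 of 5 and erythroid ones in 1 of 4 tested (160 to 330 against 88.4 to 144 CPM summed), and their part was not tested. In male heart edgeR called 0 of 27 tested members, beside 0.19% of all genes; 5 had an unadjusted p under 0.05, and DESeq2 called 0.

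In kidney both sexes gave many calls. In females 20 of 47 tested members were lower, beside 5.89% of all genes, 19 of them mitosis members. Top2a went from 2.17 to 6.91 CPM in Control to 0.170 to 1.59 in Deficient kidneys (log2 fold change -2.47 ± 0.38, adjusted p = 0.00198), Cenpf fell by 2.19 and Mki67 by 2.02. Pcna, Mcm2 and Rrm1 had log2 fold changes of 0.10, 0.11 and 0.06 (adjusted p from 0.431 to 0.644, edgeR). In males 15 of 36 were lower, beside 18.7% of all genes, which in that set changed widely. Mki67 stood at 3.02 to 6.79 CPM in Control and 0.844 to 1.74 in Deficient male kidneys (log2 fold change -1.95 ± 0.23, adjusted p = 8.35e-05), and Top2a fell by 2.21. Tk1 rose in males from a mean of 17.3 ± 3.73 to 24.4 ± 5.09 CPM (SD, n = 6 each; adjusted p = 0.024). Macrophage genes were lower in 2 of 4 in males (56.9 to 73.4 against 28.6 to 42.0 CPM) and 1 of 4 in females, and fibroblast genes were lower in 3 of 5 and higher in 1 in females; their part was not tested.

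Female liver gave 12 of 30 tested members lower, beside 7.43% of all genes, 6 of each list. E2f8, which with E2F7 restrains E2F targets in polyploid hepatocytes, went from 2.92 to 9.83 CPM in Control to 0.643 to 2 in Deficient livers (log2 fold change -1.94 ± 0.26, adjusted p = 0.000367). Mki67 was lower too, at 0.748 to 2.96 against 0.265 to 0.965 CPM, with some overlap (log2 fold change -1.73 ± 0.39, adjusted p = 0.0101).

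Ovary had the largest median fall of any set of 49 tested members, -2.18, and an unsteady count. Of 49 members 16 were lower, beside 5.78% of all genes, while DESeq2 called 38. Only because of their Control level were 10 of the 49 tested. Mki67 ranged from 4.1 to 153 CPM in Control and 0.539 to 47.0 in Deficient ovaries (log2 fold change -3.80 ± 1.07, adjusted p = 0.0479, edgeR). The highest Deficient value belonged to ZT05 replicate 3; without it 36 members were called. Each of the 12 libraries moved the count by over 1.5 times when left out, from 1 without Deficient ZT17 replicate 1 to 44 without Control ZT05 replicate 1, and the other 9 gave 3 to 6. Ccne1 fell by 4.22 and Ndc80, an outer kinetochore protein, by 3.65, both with a Deficient library at 0. Granulosa cell genes, whose cells divide in growing follicles, summed to 3.46 to 1158 CPM in Control and 3.94 to 184 in Deficient ovaries; edgeR called 0 of 6 and their median log2 fold change was -3.64. Fibroblast markers were lower in 3 of 5 (1112 to 1873 against 498 to 1328 CPM). Stage of the cycle is not given in the sources used here, and the part of these cells was not tested.

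Uterus had high levels and a wide spread, and 4 of 49 members were lower, a smaller share than the 23.8% of all genes: Rrm2, Melk, Birc5 and Ube2c. Melk, a kinase of dividing cells, went from 13.2 to 46.4 CPM in Control to 3.83 to 13.1 in Deficient uteri, with no overlap (log2 fold change -1.76 ± 0.37, adjusted p = 0.0029). Mki67 had a log2 fold change of 0.06 ± 0.49 (adjusted p = 0.935), with Control at 18.3 to 184 CPM around Deficient at 60.5 to 138. Leaving out 1 library gave 2 to 9 calls, highest without Deficient ZT05 replicate 1 and then without Control ZT17 replicate 1 (7), and 2 calls without any of 6 others. Macrophage genes were lower in 4 of 4 there (104 to 138 against 40.2 to 69.1 CPM). Endothelial genes were higher in 4 of 5, beside 3766 of all 17734 genes. The part of these cells was not tested.

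Testis, with the highest level, gave 0 of 49 called by edgeR, beside 0.0192% of all genes; 1 had an unadjusted p under 0.05 and DESeq2 called 0. The fold change was negative in 15 of 49. Mki67 stood at 54.5 to 68.3 CPM in Control and 56.4 to 77.7 in Deficient testes (log2 fold change 0.13 ± 0.08, adjusted p = 0.483). Top2a, at 128 to 141 against 126 to 167 CPM, and Pcna, at 113 to 120 against 106 to 124, overlapped as well. Genes of meiotic and postmeiotic germ cells summed to 2627 to 3694 CPM in Control and 2133 to 3133 in Deficient testes, with 0 of 7 called. Standard errors of the log2 fold changes of the 10 panel genes lay between 0.06 and 0.14, well under the size of the falls in spleen or adrenal gland.

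In male lung 4 of 44 tested members were lower, beside 0.229% of all genes, namely Cenpe, Tpx2, Mki67 and Top2a, and the median over mitosis members was -1.30. Of the 44, 15 were tested only because of their Control level, so the median is a description. Mki67 went from 5.52 to 29.1 CPM in Control to 0.423 to 4.46 in Deficient male lungs (log2 fold change -2.28 ± 0.39, adjusted p = 0.0404, edgeR). These calls rested on single libraries: leaving out any library but Control ZT05 replicate 1 gave 0 or 1 call, or 10 without Control ZT05 replicate 3. In female lung 2 of 49 were lower, Rrm2 and E2f1, a share of 4.08% and near the 4.27% of all genes, and Mki67 stood at 14.2 to 18 against 9.67 to 28.4 CPM. Leaving out Deficient ZT05 replicate 1 gave 7 calls, and any of 10 others gave 1. B cell genes moved with the male result, from 13.8 to 246 CPM down to 8.60 to 31.1 (1 of 5 called lower), as did T cell genes (10.1 to 147 against 4.53 to 16.4, 0 of 6 called). In female lung B cell genes were higher in 5 of 5, beside 561 of all 17788 genes. Their part was not tested.

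Female pituitary gave 0 of 45 by edgeR, beside 1.99% of all genes; 13 had an unadjusted p under 0.05 and DESeq2 called 4 lower and 1 higher. Deficient ZT17 replicate 3 held 24.7 CPM of Mki67, above the Control range of 3.02 to 7.47, while the median Deficient library held 0.789. Without that library 11 members were called lower, and without Control ZT17 replicate 1 there were 7.

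In the limb, members called lower were few and at low level. Female EDL gave 10 of 30 tested, beside 15.4% of all genes, female soleus 8 of 35, beside 8.53%, and female quadriceps 6 of 33, beside 10.1%. Female tibialis anterior gave 6 of 27, beside 16.8%, gastrocnemius tendon 6 of 30, beside 7.99%, and gastrocnemius 2 of 29, beside 5.62%. Several of these shares were near the background. Male counts were 2 of 20 in EDL (6.13% of all genes), 2 of 38 in EDL tendon (2.96%), 2 of 19 in tibialis anterior (3.89%) and 1 of 28 in soleus (6.43%). Female brown adipose tissue gave 1 of 29, Cenpe, beside 3.56%. Leaving out 1 library moved these small counts to 1 to 6 in male EDL, 0 to 4 in its tendon, 0 to 3 in male tibialis anterior, 0 to 1 in male soleus, 1 to 4 in female gastrocnemius and 0 to 3 in brown adipose tissue. Quadriceps went to 3 without Control ZT05 replicate 1, soleus to 5 without Control or Deficient ZT17 replicate 1, and tibialis anterior to 10 without Deficient ZT17 replicate 2.

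Mki67 and Aurka led in muscle. Mki67 in female EDL went from 0.694 to 1.31 CPM in Control to 0 to 0.365 in Deficient muscles, without overlap (log2 fold change -3.36 ± 0.51, adjusted p = 0.000479, edgeR). In gastrocnemius tendon it went from 0.733 to 1.30 to 0 to 0.394 CPM. Aurka was more abundant there and fell less: in female quadriceps from 8.49 to 13.1 CPM to 1.58 to 9.01 (log2 fold change -1.21 ± 0.29, adjusted p = 0.0119), and in male EDL from 6.54 to 8.69 to 1.99 to 6.22 CPM (-0.67 ± 0.17, adjusted p = 0.0238). In female EDL fibroblast markers were lower in 4 of 5 (1063 to 1606 against 561 to 911 CPM) and macrophage genes in 3 of 4; their part was not tested.

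Other genes of the pathway came from lists that hold none of the 49. Of these, 45 further mitosis genes were lower in 116 of 605 female pairs (19.2%) and higher in 7, and in males lower in 7 of 425 (1.65%, below the 2.45% of all genes). Another 36 replication genes were lower in 56 of 594 female pairs (9.43%, beside 7.42% of all genes) and higher in 24, and in males lower in 5 and higher in 5 of 495. In female spleen 42 of 45 and 23 of 36 were lower, beside 6.64% of all genes. In female adrenal gland it was 21 of 45 and 7 of 36, beside 1.53%. The 13 DREAM and RB-E2F regulators, the factors themselves, were lower in 22 of 229 female pairs (9.61%, beside 7.42% of all). They were higher in 37 (16.2%, beside 6.79% of all). Cyclins D and inhibitors of cyclin-dependent kinases are 7 genes that set entry into the cycle. They were lower in 29 (23.0%) and higher in 16 (12.7%) of 126 female pairs, beside 7.42% and 6.79% of all.

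Whether the response differed between the sexes was tested in the 16 tissues sampled in both. Of 621 pairs tested 16 were called, beside 1.15% of all genes, all in lung, adrenal gland and kidney. The count was 9 without female Control ZT17 replicate 3 and 10 without male Deficient ZT05 replicate 1. In adrenal gland 9 of 49 members fell further in females, beside 247 of 17572 genes: Melk by -2.23 ± 0.42 (female minus male log2 fold change, adjusted p = 0.00948, edgeR) and Ccnb1 by -2.22 ± 0.41, then Aurkb, Prc1, Plk1, Rrm2, Kif20a, Mcm5 and Mcm3 at -1.47 to -0.66. All male adrenal glands and kidneys came from the higher-numbered animals and all female ones from the lower-numbered, so sex and the set of animals cannot be told apart there. In lung, where the males were lower-numbered, 5 of 49 members fell further in males, beside 134 of 18528 genes, led by Ccnb1 at 3.70 ± 0.65 (adjusted p = 0.0187) and Cenpe at 2.42 ± 0.49. None of the 5 was called when each sex had its own variance (limma voom, adjusted p from 0.238 to 0.368), against 7 of 9 in adrenal gland. Ccnb1 in male lung was at 0 to 0.156 CPM in Deficient and 0.449 to 2.79 in Control libraries and was not tested in males alone. In kidney the response of 2 of 46 members differed between the sexes. This was a smaller share than the 979 and 1363 of 16797 genes whose response was lower and higher in females than in males. E2f1 fell further in males (0.77 ± 0.25, adjusted p = 0.0384, edgeR). Ect2, the exchange factor that activates RhoA for cytokinesis, fell further in females (-1.01 ± 0.24, adjusted p = 0.00948).

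**Figure D4:**
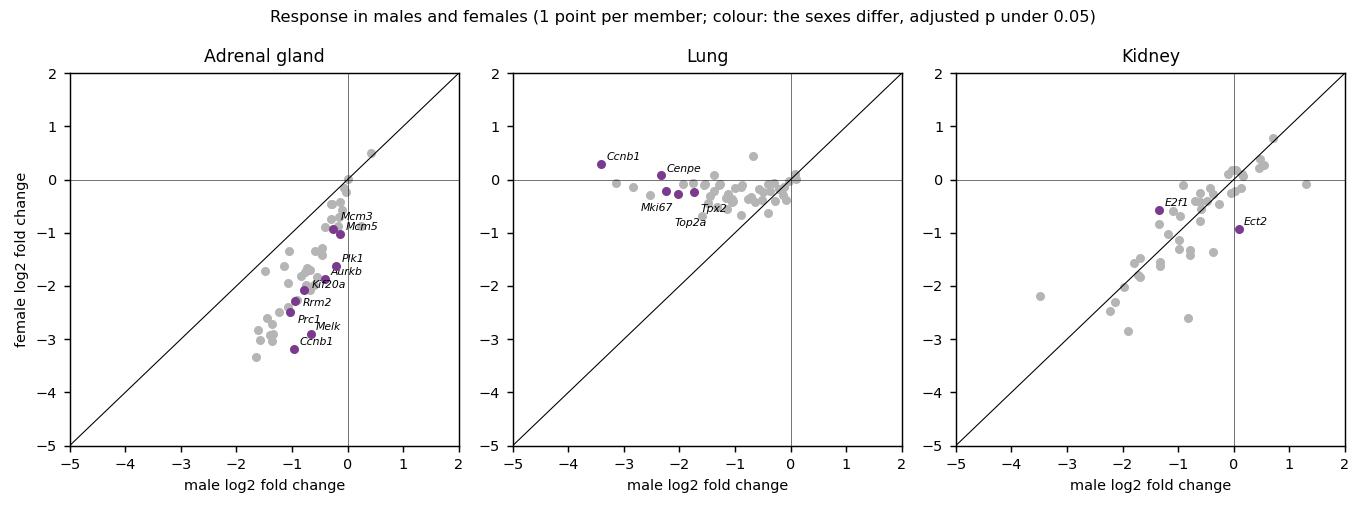
Log2 fold change of Deficient over Control in females (y axis) against males (x axis) for each member in 3 tissues, from a fit of both sexes, with the line of equal change and colour where the sexes differ at an adjusted p under 0.05. The 9 coloured adrenal points lie below the line, the 5 in lung above it with female values near 0, and the 2 in kidney are E2f1 and Ect2.

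Few members differed between the times. From ZT05 to ZT17 in Control mice 15 member and tissue pairs rose and 9 fell of 1229 tested, beside 3.18% of all genes, and in Deficient mice 3 rose and 4 fell, beside 1.45%. These counts were 12 to 13 in Control without female Control ZT05 replicate 2 or ZT17 replicates 1 or 2, and in Deficient mice 3 without female Deficient ZT05 replicate 2 or ZT17 replicate 1 and 15 without female Deficient ZT17 replicate 3 or male Deficient ZT17 replicate 2. The largest rise in Control mice was that of Ube2c in female gastrocnemius, a log2 fold change of 2.63 ± 0.54 (adjusted p = 0.0316, edgeR), followed by Rrm2 (2.23 ± 0.34, adjusted p = 0.000868) and Ect2 (1.86 ± 0.58, adjusted p = 0.0364) in female brown adipose tissue. That tissue called 5 of 29 members, a smaller share than its 1697 genes lower and 1622 higher at ZT17 of 14355. In Control limb muscle Mcm4 was lower at ZT17, at -0.61 ± 0.11 in female tibialis anterior, -0.56 in quadriceps and -0.55 in EDL. In Deficient mice the largest change was a rise of Mki67 in female gastrocnemius tendon, 3.51 ± 0.88 (adjusted p = 0.0382, edgeR). Mki67 lay near the floor in these Deficient libraries, in the range given above, so this change rests on few reads. In brown adipose tissue Cdc6 rose by 1.73 and Mcm4 by 0.73. Ccne1, a cyclin E gene, fell toward ZT17 by 2.71 in female kidney, 2.60 in female liver and 1.32 in female brown adipose tissue, and Anln fell by 1.11 in female tibialis anterior.

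The response itself differed between the times in 8 of 1229 pairs, a share near the 0.691% of all genes: 7 of 30 in female liver, where 534 of 13793 genes were called in the same direction and 545 in the other, and Ccne1 in female kidney. The count was 2 to 5 without female Control ZT05 replicates 1, 2 or 3, Control ZT17 replicates 1 or 2, Deficient ZT05 replicate 3 or Deficient ZT17 replicates 2 or 3. The 8 are given as a description. In Control livers Mcm5 stood at 2.07, 1.87 and 2.18 CPM at ZT05 and at 6.28, 5.51 and 3.24 at ZT17. In Deficient livers it stood at 0.567, 1.10 and 1.05 at ZT05 and 0.660, 0.643 and 0.5 at ZT17. Control livers were higher at ZT17 than at ZT05 and Deficient ones were not, and the difference of the 2 responses was -1.87 ± 0.44 on the log2 scale (adjusted p = 0.0255, edgeR).

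Mcm6 showed the same at another level: the arms overlapped at ZT05 (3.59, 4.03 and 4.27 CPM in Control, 3.86, 3.78 and 4.14 in Deficient), and at ZT17 Control held 9.89, 7.04 and 4.39 and Deficient 1.78, 1.36 and 2.67. Cdc45, part of the replicative helicase, was higher in Deficient livers at ZT05 (1.02, 0.866 and 1.77 against 0.629, 0.665 and 0.653 CPM) and lower at ZT17 (0.457, 0.454 and 0.791 against 1.28, 1.17 and 1.59). The differences were -1.86 ± 0.40 for Mcm6 and -2.11 ± 0.48 for Cdc45. Ect2, Ccne2, Mcm4 and Pcna gave -2.16, -1.82, -1.17 and -0.60. All of the 7 but Ccne2 were called higher at ZT17 than at ZT05 in Control livers. In kidney Ccne1 held 0.629, 1.75 and 1.07 CPM in Deficient mice at ZT05 and 0.127, 0.136 and 0.237 at ZT17, a difference of -2.95 ± 0.58 (adjusted p = 0.0303).

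**Figure D5:**
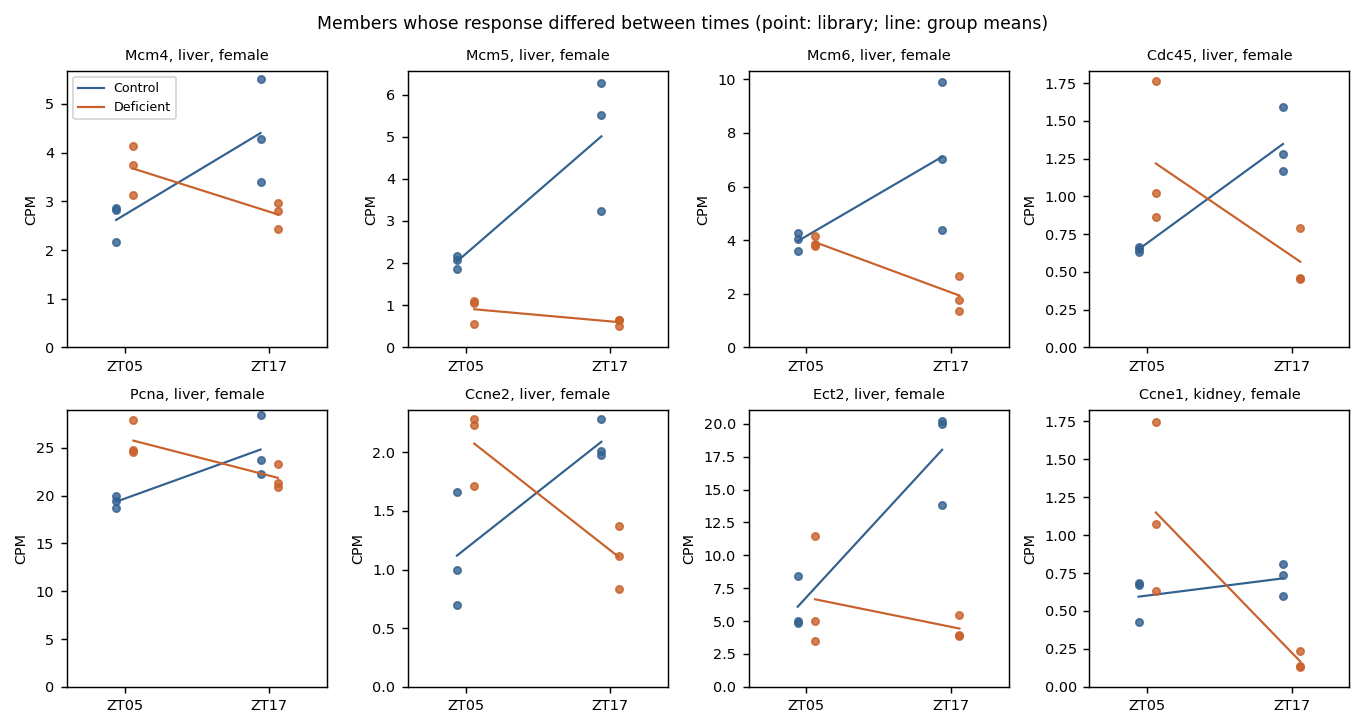
CPM on the y axis in each library (1 point) at ZT05 and ZT17 (x axis) for the 8 members whose response differed between times, Control in blue and Deficient in orange, with lines joining group means of 3 libraries. In liver the Control lines rise and the Deficient lines fall, and at ZT17 for each liver gene other than Pcna the lowest Control value lies above every Deficient value.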

How the data were processed

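The authors deposited raw counts per gene of stranded, polyadenylated RNA libraries (TRIzol extraction, TruSeq kit, per the labels' protocols). The submitters' processing notes name STAR 2.7.10a with build GRCm38, after cutadapt 4.1; the counting tool and annotation are not given in the sources used here. Without them, reads shared with the pseudogene copies of Ccnb1, Ccnb2, Pcna, Kif4 and Tyms may have been split or dropped. So may reads shared with same-strand genes overlapping Mcm7, Rrm1, Foxm1, Ndc80, Kif11, Tpx2, Nusap1, Anln and Top2a.

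From these counts a separate model was made for every tissue in either sex (R 4.3.3, limma 3.58.1, edgeR 4.0.16): filterByExpr (minimum count 10, total 15), TMM scaling, 4 groups of treatment and time, the quasi-likelihood test and Benjamini-Hochberg adjustment over all genes of that fit, called at 0.05. The sex difference came from a fit of both sexes. CPM printed beside a fold change were scaled within that fit, and levels across tissues over all 419 libraries with a pseudocount of 0.5. Errors are SE unless SD is written. The p-values measure only the spread between these samples. Low counts limit precision in muscle and in male liver, heart, lung, spleen and brown adipose tissue. The code was tested on simulated data. Libraries with the same replicate number did not deviate together (mean correlation -0.105 to 0.221, and 0 of 35 fits with every pair over 0.1), so the numbers were not used as pairs. DESeq2 1.42.0, other filters and scalings, a replicate block and leaving out each replicate were alternatives.

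The members and lists were chosen with earlier results of these data known. Members named with values were, where at least 5 were called, the 3 largest falls and 2 largest rises at a mean of at least 1 CPM; the members called in most sets; a panel of 10; every member called in the sex and time contrasts up to 10, otherwise the 3 largest; and the promoters of the 2 members of each list with most calls, ties by larger median fold change. A promoter whose RefSeq start lay over 50 bases inside the annotated gene was passed over, a limit added after the rule, and one with fewer bases inside (Rrm2) was printed without them. A few others were named after their values were seen: Cdc45 and Ccne1 in adrenal gland, Rrm1, Tyms, Mcm4 across muscles at the 2 times, and single members whose count was small.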

Additional observations from a re-analysis of the deposited data

Results flagged for a closer look

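The module level of 7 libraries lay far from the rest of their arm by Dixon's test, of 70 arms of 5 or 6 libraries; chance gives about 1 in 20. Those above their arm were pituitary female Deficient ZT17 replicate 3 at 1.61 (the others 0.534 to 0.656), heart female Deficient ZT05 replicate 3 at 1.29 (0.553 to 0.762), ovary Deficient ZT05 replicate 3 at 2.51 (0.700 to 1.02), gastrocnemius female Deficient ZT17 replicate 2 at 1.28 (0.446 to 0.572) and tibialis anterior tendon male Control ZT17 replicate 1 at 1.85 (0.711 to 0.929). Those below were liver male Control ZT17 replicate 2 at -0.27 (0.0988 to 0.237), with 94.4% of its counts from mitochondrial or ribosomal RNA-like genes, and EDL tendon female Deficient ZT17 replicate 3 at 0.55 (0.745 to 0.834).

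The response differed between the sexes (edgeR, female minus male log2 fold change) in lung for Ccnb1 by 3.70, Cenpe by 2.42, Mki67 by 2.04, Top2a by 1.75 and Tpx2 by 1.51. In adrenal gland the difference was -2.23 for Melk, -2.22 for Ccnb1 (female -3.18, male -0.96), -1.47 for Aurkb, -1.45 for Prc1, -1.42 for Plk1, -1.34 for Rrm2, -1.29 for Kif20a, -0.89 for Mcm5 and -0.66 for Mcm3. In kidney it was 0.77 for E2f1 and -1.01 for Ect2. With a variance for each sex (limma voom) none of the lung genes was called, against 7 of 9 in adrenal gland. In adrenal gland and kidney sex cannot be told apart from the set of animals.

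The response differed between the times (ZT17 minus ZT05) in female liver by -2.16 for Ect2, -2.11 for Cdc45, -1.87 for Mcm5, -1.86 for Mcm6, -1.82 for Ccne2, -1.17 for Mcm4 and -0.60 for Pcna, and in female kidney by -2.95 for Ccne1.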

How the results depend on the processing

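No called pair named by the rule reversed under any alternative run. The 200 female falls became 99 with a stricter filter (5 CPM in 3 libraries) and 164 to 218 when 1 replicate was left out; other settings gave 165 to 254. The 11 female rises became 6 with the stricter filter, 5 with both sexes in 1 fit and 5 to 13 without 1 replicate. The 38 male falls became 74 with no filter, 12 with the stricter filter, 68 by DESeq2, 70 with both sexes in 1 fit and 25 to 38 without 1 replicate; the 3 male rises became 9 with no filter, 5 with both sexes in 1 fit, and 1 to 4 without 1 replicate. The 16 sex differences became 9 with the stricter filter, 33 by DESeq2, 10 by voom with a variance for each sex, 5 in tissues whose males were all lower-numbered and 9 to 24 without 1 replicate. The 24 time differences in Control mice became 39 with no filter and 12 to 29 without 1 replicate; the 7 in Deficient mice became 26 with no filter, 2 with the stricter filter, 23 by DESeq2 and 3 to 15 without 1 replicate. The 8 differences of response between times became 16, 2 and 13 in the same order, 17 with both sexes in 1 fit and 2 to 9 without 1 replicate. Stricter filters test fewer members; the cause of the other changes was not tested. With the replicate number as a block the counts were 199, 10, 39, 2, 15, 24, 7 and 9 in the order given. A term for the set of males was added in the tissues that mixed both sets. Of the counts of falls and of rises there, 1 moved by over 1.5 times and 9 did not. Of 99 called member and tissue pairs named by the rule, 58 kept their call in every alternative run.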

Other observations

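Markers of 3 kinds of cells were also lower in the female sets. Fibroblast genes were called lower in 41 of 90 gene and tissue pairs (45.6%) and higher in 3, erythroid precursor genes lower in 27 of 62 (43.5%) and higher in 3, and macrophage genes lower in 29 of 72 (40.3%) and higher in 0 by edgeR. Of all female pairs 7.42% were lower and 6.79% higher. Endothelial genes were near these shares, lower in 7 (7.78%) and higher in 5 (5.56%) of 90 pairs. B cell genes were lower in 1 (2.27%) and higher in 7 (15.9%) of 44, and T cell genes lower in 1 (2.27%) and higher in 2 (4.55%) of 44. In males fibroblast genes were lower in 11 (13.4%) and higher in 3 of 82 pairs, and erythroid ones lower in 11 of 55 (20.0%). Macrophage ones were lower in 2 of 66 (3.03%). Of all male pairs 2.45% were lower. These lists share their libraries with the cell cycle genes, and no relation between them was tested.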
